A study of Mus musculus with 18 samples.

Results

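The gene set described here holds 10 components of bone morphogenetic protein (BMP) signalling in the trunk of mouse embryos, taken by gene symbol from the 53465 genes of the deposited count table. They are the secreted ligands Bmp2, Bmp4, Bmp5 and Bmp7, the extracellular antagonists Nog (noggin), Chrd (chordin), Fst (follistatin) and Grem1 (gremlin), and the homeobox transcription factor genes Msx1 and Msx2, which BMP signalling is known to induce. All 10 were found in the table, and all 10 passed the filter on low counts in every comparison. The rule uses symbols only.

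RNA was sequenced from 9 embryos at embryonic day 9, of which 5 were controls and 4 were labelled DKO, for embryos mutant for Meis1 and Meis2. Each embryo gave 1 anterior and 1 posterior library, which makes 4 groups, with n = 5 for the control and n = 4 for the DKO groups of either piece. The bud of the axis together with the 10 to 12 youngest somites made up the posterior piece. The anterior piece was the older somite-bearing axis, and regions in front of the somites were left out. The study asked which genes act under Meis in giving vertebrae their position along the body axis, and whether early patterning or later somite differentiation is affected. Embryos had 20 to 24 somites at collection. In the DKO the deletion is conditional, made by a Cre recombinase under Delta1 (Dll1), a Notch ligand gene of the presomitic mesoderm and neural tube, so cells of a piece outside that lineage would keep both Meis genes. The alleles carried by the controls are not given in the sources used here.

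BMPs are secreted proteins of the TGF-beta family that bind paired type I and type II receptors, after which phosphorylated Smad1, Smad5 and Smad9 enter the nucleus with Smad4. Noggin, chordin, follistatin and gremlin bind ligands outside the cell and keep them from the receptors. In the trunk at this stage BMPs come from the lateral plate, the surface ectoderm and the dorsal neural tube, and their balance with the antagonists is known for setting mediolateral identity in the mesoderm and dorsal identity in the neural tube. Meis1 and Meis2 encode homeodomain proteins that act as partners of Hox proteins.

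Library totals ranged from 12.7 to 38.2 megacounts, and 3 counts, used as the floor of detection, corresponded to 0.0786 to 0.237 counts per megacount (CPM). Levels below are CPM after trimmed-mean (TMM) scaling. Meis1 lay at 113 to 135 CPM in anterior controls and 89.8 to 111 CPM in anterior DKO, and at 59.6 to 99.9 CPM and 46.7 to 72.0 CPM in the posterior groups. Meis2 lay at 177 to 203 CPM against 130 to 157 CPM anteriorly and at 117 to 162 CPM against 91.2 to 116 CPM posteriorly. Transcripts of both genes were thus still counted in every DKO library, and gene-level counts do not show whether an exon is missing. The summed level of 9 bud markers was 29.6 to 32.9 CPM in the anterior and 337 to 647 CPM in the posterior libraries, which matches the region labels. Control embryo 1, labelled female, had Xist at 0.340 and 0.200 CPM, against 397 to 672 CPM in the other embryos labelled female and 0.172 to 0.787 CPM in those labelled male. Its summed Y-linked transcripts were at 151 and 161 CPM, against 0.357 to 0.945 CPM and 121 to 178 CPM. These sex-linked values were scaled to library totals only. The anterior library of control embryo 3, the shallowest, stood apart from the other anterior controls in several members, and values without it are given beside several results.

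The members lie on several chromosomes of the mouse build GRCm38, with gene bodies from the GENCODE M21 annotation. Bmp4 (ENSMUSG00000021835) spans chr14:46383520-46390669 on the minus strand, Bmp2 (ENSMUSG00000027358) chr2:133552159-133562885 on the plus strand, Fst (ENSMUSG00000021765) chr13:114452290-114458951 on the minus strand, Msx1 (ENSMUSG00000048450) chr5:37820485-37824583 on the minus strand and Msx2 (ENSMUSG00000021469) chr13:53466884-53473074 on the minus strand. The other members are Bmp5 at chr9:75775364-75900310 (plus strand), Bmp7 at chr2:172868012-172940321 (minus), Nog at chr11:89300638-89302332 (minus), Chrd at chr16:20733127-20742384 (plus) and Grem1 at chr2:113746164-113758646 (minus). Bmp4, Bmp5, Chrd and Fst overlap other annotated genes (Gm15217 and Gm15222, Gm47723 and Gm26903, Thpo, and Gm47040). Whether the counting used strand is not stated, so their counts may hold reads of those neighbours. Embryos, not libraries, are the replicates of a genotype.

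Promoter sequences for 6 of the 10 members (Bmp4, Bmp5, Chrd, Grem1, Msx1 and Msx2) were found in RefSeq on GRCm38.p6. The 250 bases before the RefSeq start were searched on both strands for the core letters of a Meis site (TGACAG), a GC-rich Smad site (GGCGCC) and the short Smad element (CAGAC). Of 32851 promoter windows of the same length, 15.9% held the first, 9.59% the second and 42.2% the third (matches of different motifs may share letters). The windows of Bmp4, whose level differed most between the pieces, of Msx1, the most abundant member, and of Grem1, the window with the most matches, are printed 5′ to 3′ along the gene. Capitals mark matches.
Bmp4, chr14:46390670-46390919, minus strand: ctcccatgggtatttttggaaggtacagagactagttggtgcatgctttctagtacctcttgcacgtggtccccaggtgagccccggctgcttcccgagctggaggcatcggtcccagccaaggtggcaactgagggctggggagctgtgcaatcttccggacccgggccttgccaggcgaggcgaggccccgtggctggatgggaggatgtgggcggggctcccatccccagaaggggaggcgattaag
Msx1, chr5:37824586-37824835, minus strand: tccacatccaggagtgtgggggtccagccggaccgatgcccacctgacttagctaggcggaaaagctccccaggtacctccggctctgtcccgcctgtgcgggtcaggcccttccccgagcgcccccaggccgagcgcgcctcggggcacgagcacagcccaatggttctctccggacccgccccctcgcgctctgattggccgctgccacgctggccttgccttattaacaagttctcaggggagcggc
Grem1, chr2:113758649-113758898, minus strand: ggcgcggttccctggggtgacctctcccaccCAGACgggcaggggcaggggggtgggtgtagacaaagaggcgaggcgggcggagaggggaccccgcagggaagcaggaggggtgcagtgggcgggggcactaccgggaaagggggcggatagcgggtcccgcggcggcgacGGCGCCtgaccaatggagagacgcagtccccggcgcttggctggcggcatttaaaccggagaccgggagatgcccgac
None of the 6 windows held TGACAG. The windows of Bmp4, Msx1 and Msx2 held 0 matches, Grem1 held 1 CAGAC and 1 GGCGCC, Chrd held 1 GGCGCC and Bmp5 held 1 CAGAC. The Msx2 window, chr13:53472781-53473030, lies inside the GENCODE gene body given above, and that of Bmp5 shares its last base with the gene body. A match is a description of the letters and says nothing of binding, and no match bears on this window alone.

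Msx1 was the most abundant member per kilobase of exon in all 4 groups and Chrd the least. In posterior controls the mean level per kilobase was 18.5 ± 2.73 CPM (SD, n = 5) for Msx1, 15.7 ± 1.18 CPM for Bmp4, 7.86 ± 0.261 CPM for Fst, 6.65 ± 0.820 CPM for Bmp7, 4.58 ± 0.646 CPM for Msx2 and 0.480 ± 0.0955 CPM for Chrd. Msx1 and Bmp4 overlapped there within 1 SD, as did Msx2, Grem1 and Nog in turn and Bmp5 and Bmp2. In anterior controls Bmp4 ranked 3 at 5.22 ± 1.77 CPM per kilobase, and its ± 1 SD range overlapped those of Fst, Bmp7, Grem1, Nog and Msx2. In anterior DKO it ranked 6 at 2.86 ± 1.04 CPM per kilobase (n = 4), with a ± 1 SD range overlapping those of Grem1, Nog, Msx2 and Bmp5. Bmp4 was the most abundant ligand per kilobase in both posterior groups and in anterior controls, and Bmp7 was in anterior DKO.

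**Figure D1:**
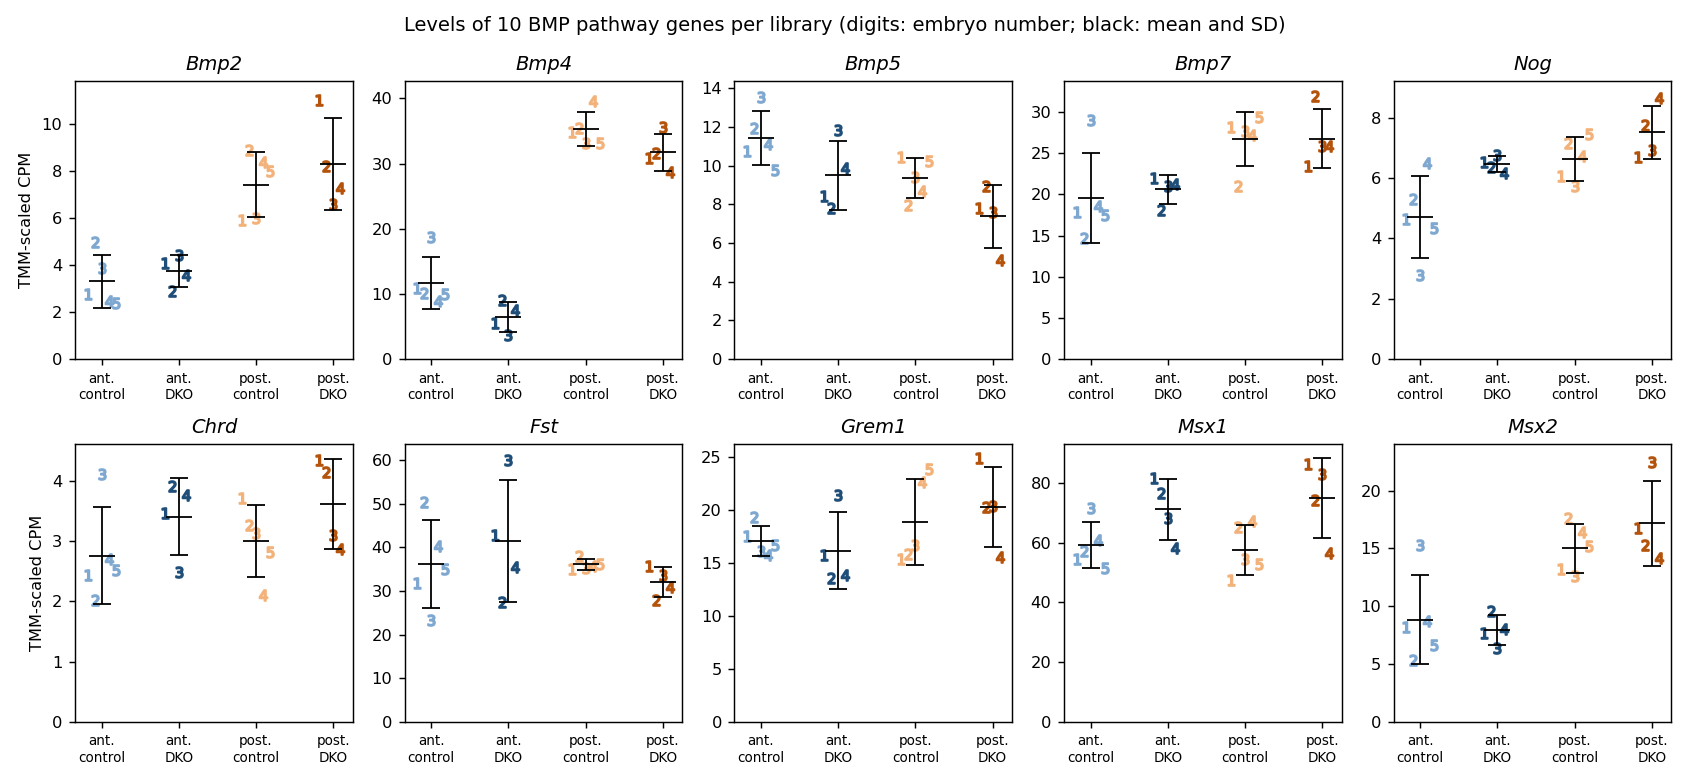
TMM-scaled CPM (y axes, from 0) of the 10 genes in each library of the 4 groups (x axes). Digits are embryo numbers within a genotype, black bars are mean ± SD. Bmp2 and Bmp4 lie higher in all posterior libraries than in any anterior library of the same genotype, while the control and DKO points of every gene overlap within each piece.

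The posterior piece was compared with the anterior piece within each genotype with edgeR's quasi-likelihood test and Benjamini-Hochberg adjustment over all genes, with an adjusted p below 0.05 as the call. In controls, 3 of the 10 members were called, all higher posteriorly: Bmp2, Bmp4 and Msx2. The background was 25.4% of 15294 genes called in either direction, so the count of members is near it. In the DKO, 4 members were called, again all higher posteriorly: Bmp2, Bmp4, Bmp7 and Msx2, against 18.5% of 15777 genes. The median log2 fold change of the members was 0.30 in controls and 0.28 in DKO, against -0.0069 and 0.0113 over all genes tested. In bulk tissue, fewer cells that express a gene and less RNA per cell cannot be told apart. The summed level of 9 surface ectoderm markers was 100 to 198 CPM in anterior and 231 to 319 CPM in posterior controls, and that of 9 lateral plate and limb field markers was 73.1 to 158 CPM and 126 to 189 CPM. The lateral plate and limb field genes differed in direction, with 5 called higher and 1 lower posteriorly (log2 fold changes from -3.13 to 7.51). The sum of 5 intermediate mesoderm markers was 9.25 to 23.9 CPM and 63.6 to 78.1 CPM, with 5 of 5 genes called higher, that of 7 gut endoderm markers 29.3 to 50.01 CPM and 64.7 to 103 CPM, and that of 7 neural tube markers 426 to 536 CPM and 230 to 320 CPM. The part of these tissues in the regional differences was not tested.

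Bmp4, a ligand of the lateral plate and of dorsal ectoderm, showed the widest regional difference of the set. Its level was 10.9, 10.2, 18.7, 8.91 and 9.91 CPM in anterior controls 1 to 5 and 34.9, 35.5, 33.2, 39.6 and 33.2 CPM in the posterior libraries of the same embryos. In the DKO it was 5.58, 9.01, 3.64 and 7.54 CPM anteriorly and 30.9, 31.6, 35.7 and 28.8 CPM posteriorly. All posterior libraries lay above all anterior ones in both genotypes. The log2 fold change was 1.60 ± 0.169 (SE) in controls (adjusted p = 1.79e-05, edgeR) and 2.30 ± 0.227 in DKO (adjusted p = 7.93e-05). Without control embryo 3 the control value was 1.84 (adjusted p = 6.26e-07).

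Bmp2, a close relative of Bmp4, was rarer and showed the same regional direction. Anterior controls 1 to 5 had 2.78, 4.997, 3.89, 2.47 and 2.40 CPM and posterior controls had 5.91, 8.89, 6.003, 8.37 and 7.99 CPM. Anterior DKO libraries had 4.09, 2.88, 4.45 and 3.60 CPM and posterior DKO libraries had 11.1, 8.24, 6.62 and 7.27 CPM. The pieces did not overlap in either genotype, and the difference within an embryo was positive in 9 of 9 embryos. The log2 fold change was 1.16 ± 0.219 (SE) in controls (adjusted p = 0.00178, edgeR) and 1.15 ± 0.196 in DKO (adjusted p = 0.00217).

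Bmp2 and Bmp4 were the members whose pieces did not overlap in controls, against 20.1% of genes tested, and Bmp2, Bmp4, Bmp7 and Msx2 were those in DKO, against 23.5% of genes.

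Bmp7, a ligand of ectoderm, notochord and nephric mesenchyme, sat at the edge of the threshold. It was at 17.9, 14.8, 29.0, 18.6 and 17.5 CPM in anterior controls 1 to 5 and at 28.1, 21.0, 27.7, 27.2 and 29.5 CPM in posterior controls. In DKO it was at 22.0, 18.1, 21.0 and 21.3 CPM anteriorly and 23.5, 31.9, 25.8 and 25.9 CPM posteriorly. The high anterior library of control embryo 3 overlapped the posterior controls. The log2 fold change was 0.46 ± 0.159 (SE) in controls (adjusted p = 0.053, edgeR) and 0.38 ± 0.11 in DKO (adjusted p = 0.0364). Without control embryo 3 the control value was 0.62 with adjusted p = 0.00381, while the DKO call was lost when any 1 DKO embryo was left out (values 0.23 to 0.47, adjusted p 0.0526 to 0.157). The control value of Bmp7 was called with the embryo as a block (0.48, adjusted p = 0.00441), RLE size factors (adjusted p = 0.0491), DESeq2 (0.0151), limma-voom (0.0177), no filter (0.0321) and the joint fit of 18 libraries (0.0259). It was not called with upper quartile scaling, the filter at a mean of 50 counts or unrounded counts (adjusted p up to 0.063), nor without control embryo 1, 2, 4 or 5 (values from 0.39, adjusted p up to 0.189). Its DKO value was not called with the block (0.37, adjusted p = 0.0649) or in the joint fit (0.38, adjusted p = 0.106).

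Bmp5, a ligand of the dorsal neural tube and of mesenchyme, had values of the opposite sign. It ranged from 9.78 to 13.5 CPM in anterior and 7.95 to 10.4 CPM in posterior controls, and from 7.82 to 11.8 CPM and 5.12 to 8.97 CPM in DKO, with overlap throughout. The posterior value was below the anterior in 4 of 5 control and 3 of 4 DKO embryos. The log2 fold change was -0.29 ± 0.111 (SE, adjusted p = 0.0795, edgeR) in controls and -0.36 ± 0.187 (adjusted p = 0.247) in DKO.

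None of the 4 antagonists was called between the pieces in the test above. Nog, which in the trunk marks notochord and dorsal somite, was at 4.64, 5.31, 2.80, 6.50 and 4.34 CPM in anterior controls 1 to 5 and 6.07, 7.17, 5.75, 6.74 and 7.46 CPM in posterior controls, a log2 difference of 0.48 ± 0.185 (SE, adjusted p = 0.0803, edgeR). The difference within an embryo was positive in 5 of 5 controls. Nog was called with the embryo as a block (0.50, adjusted p = 0.0233, edgeR), in the joint fit of 18 libraries (adjusted p = 0.0317, edgeR) and with DESeq2 (adjusted p = 0.0395). It was not called with the other alternatives (adjusted p up to 0.109) or with any embryo left out (adjusted p from 0.058, edgeR). In DKO the value was 0.22 ± 0.12 (adjusted p = 0.264), positive in 4 of 4 embryos.

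Fst, which binds activins as well as BMPs, varied more among anterior than among posterior controls, a difference in spread that was not tested. It was at 31.9, 50.4, 23.3, 40.4 and 35.1 CPM in anterior controls 1 to 5 but at 35.1, 38.1, 35.3, 35.8 and 36.1 CPM in posterior controls, a coefficient of variation of 27.8% against 3.32%. Anterior DKO libraries had 42.9, 27.4, 60.05 and 35.6 CPM and posterior DKO libraries 35.8, 27.9, 33.7 and 30.9 CPM. The log2 fold changes were -0.012 ± 0.152 (SE, adjusted p = 0.971, edgeR) and -0.37 ± 0.2 (adjusted p = 0.268).

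Grem1, known for its part in limb bud signalling, and Chrd, an antagonist of node and notochord, were the other two antagonists. Grem1 ranged from 15.8 to 19.3 CPM in anterior and 15.3 to 23.9 CPM in posterior controls, and Chrd from 2.01 to 4.12 CPM and 2.11 to 3.72 CPM, with 39 to 141 counts per control library. Their log2 fold changes were 0.14 ± 0.132 and 0.14 ± 0.219 in controls and 0.34 ± 0.175 and 0.091 ± 0.204 in DKO, with adjusted p from 0.244 to 0.826 (edgeR). Without control embryo 3 the control value of Chrd was 0.31 (adjusted p = 0.387).

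Of the target genes, Msx2 was called between the pieces and Msx1 was not. Msx2 was at 8.21, 5.35, 15.3, 8.68 and 6.61 CPM in anterior controls 1 to 5 and 13.2, 17.7, 12.6, 16.4 and 15.2 CPM in posterior controls, and at 7.69, 9.57, 6.41 and 8.05 CPM and 16.8, 15.2, 22.5 and 14.2 CPM in the DKO pieces. In controls the pieces overlapped through control embryo 3 alone, the only embryo of 9 in which Msx2 was lower posteriorly. The log2 fold change was 0.78 ± 0.232 (SE, adjusted p = 0.0253, edgeR) in controls and 1.11 ± 0.169 (adjusted p = 0.00112) in DKO. The control call was lost without control embryo 1, 2, 4 or 5 (values 0.57 to 0.81, adjusted p 0.0753 to 0.107), and without control embryo 3 the value was 1.12 (adjusted p = 0.000748).

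Msx1 was at 54.6, 57.2, 71.5, 60.9 and 51.6 CPM in anterior controls and 47.5, 65.1, 54.6, 67.3 and 52.7 CPM in posterior controls. The pieces overlapped, and the log2 fold change was -0.039 ± 0.107 (SE, adjusted p = 0.846, edgeR) in controls and 0.078 ± 0.14 (adjusted p = 0.78) in DKO.

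**Figure D2:**
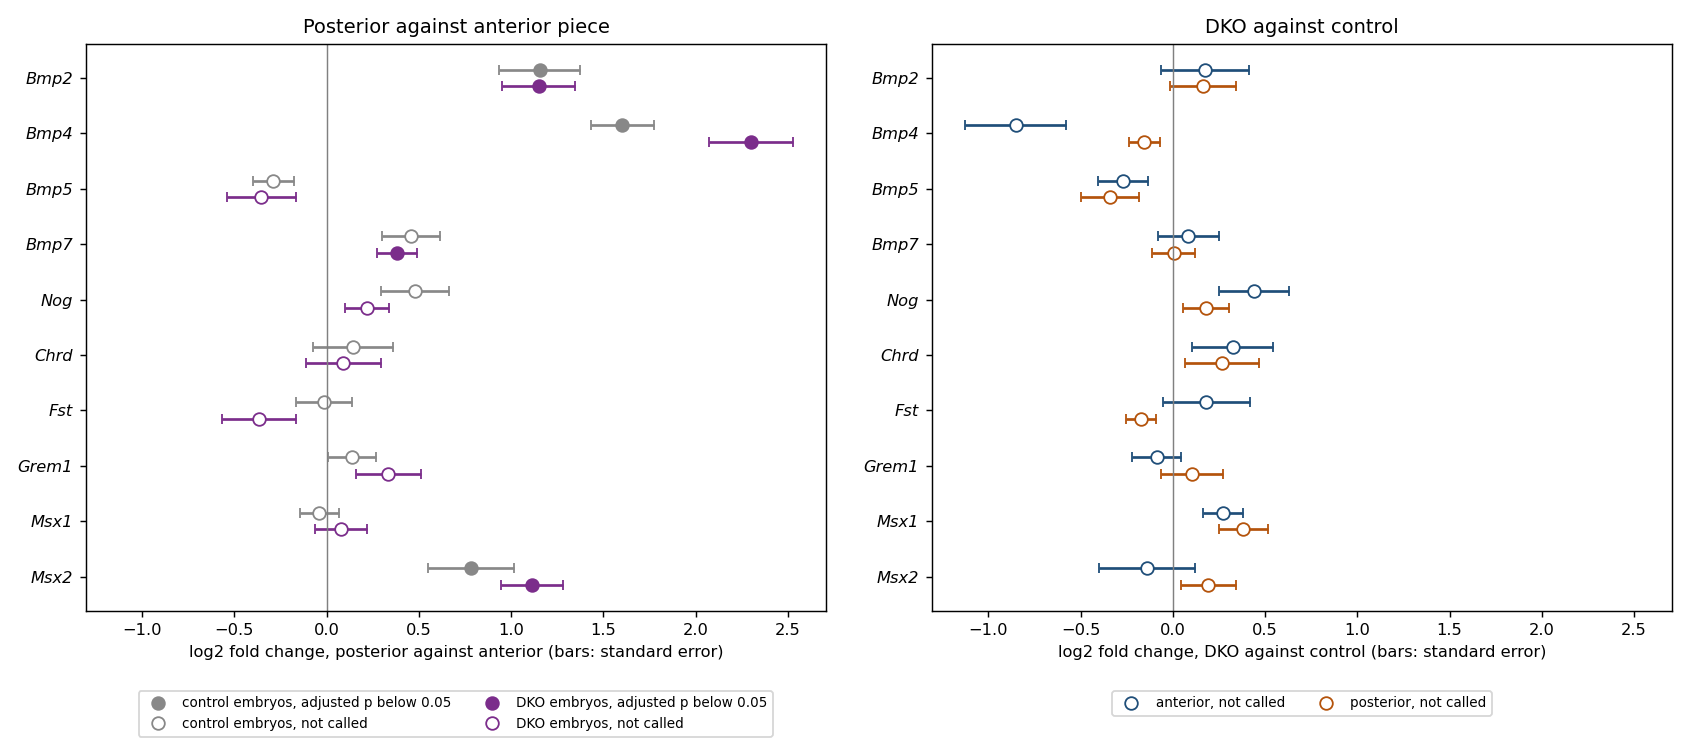
Log2 fold change (x axes) of the 10 genes, with bars of 1 standard error. Left, posterior against anterior in control and DKO embryos; right, DKO against control in each piece; filled points have an adjusted p below 0.05. Filled points occur only on the left, for Bmp2, Bmp4 and Msx2 in both genotypes and Bmp7 in DKO; Bmp4 in the anterior piece lies farthest from 0 on the right, at -0.85.

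The DKO was compared with controls within each piece. No member was called in the anterior piece, where 0.0394% of 15238 genes were (6 genes), and none in the posterior piece, where 0.0126% of 15936 genes were (2 genes). At an unadjusted p below 0.05 there were 3 members anteriorly (Bmp4, Nog and Msx1), against 13% of genes, and 1 posteriorly (Msx1), against 11% of genes. No member had control and DKO groups without overlap, against 5.07% of genes anteriorly and 4.29% posteriorly. The median log2 fold change of the members was 0.13 anteriorly, 6 values being positive and 4 negative, and 0.14 posteriorly, 7 being positive and 3 negative; over all genes the medians were 1e-04 and 0.0111. With DESeq2, which called 296 genes (1.94%) anteriorly and 161 (1.01%) posteriorly, the counts of members were 1 (Bmp4) and 0.

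Among the ligands, Bmp4 had the largest genotype difference. Anterior Bmp4 averaged 11.7 ± 3.99 CPM (SD) over the 5 controls and 6.44 ± 2.34 CPM over the 4 DKO embryos. The DKO effect was -0.85 ± 0.272 (SE) on the log2 scale (adjusted p = 0.234, edgeR). The DKO library of embryo 2, at 9.01 CPM, overlapped the lowest control, embryo 4 at 8.91 CPM. With DESeq2 the value was -0.86 with adjusted p = 0.0492, over the other alternatives and single embryos left out the adjusted p ran from 0.0605 to 0.587, and without control embryo 3 the value was -0.63 (adjusted p = 0.324). Posteriorly the means were 35.3 ± 2.64 and 31.7 ± 2.88 CPM, a value of -0.16 ± 0.0836 (adjusted p = 0.495). Bmp5 had -0.27 ± 0.134 (adjusted p = 0.425) anteriorly and -0.34 ± 0.156 (adjusted p = 0.456) posteriorly, while Bmp2 had 0.17 and 0.16 and Bmp7 0.084 and 0.005. Without control embryo 3 anterior Bmp7 was 0.26 (adjusted p = 0.329, edgeR), and without control embryo 2 it was -0.0048. Anterior Bmp2 was 0.39 without control embryo 2 and 0.078 without control embryo 5. Posterior Bmp2 was -0.0091 without DKO embryo 1. Posterior Bmp5 was -0.21 without DKO embryo 4.

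Among the antagonists, Nog in anterior DKO was close-set at 6.55, 6.38, 6.76 and 6.15 CPM, all above 4 of the 5 anterior controls, with control embryo 4 at 6.50 CPM among them. Its log2 fold change was 0.44 ± 0.191 (SE, adjusted p = 0.365, edgeR), and 0.31 without control embryo 3, whose 2.80 CPM was the lowest of the group. The sum of 5 notochord and floor plate markers was 44.4 to 54.7 CPM in the same controls and 57.6 to 69.6 CPM in the DKO libraries, without overlap, and its part in the Nog values was not tested. Posterior Nog differed by 0.18 ± 0.127 (adjusted p = 0.569), or by 0.098 without DKO embryo 4. Chrd had 0.32 and 0.27 in the anterior and posterior pieces, Fst 0.18 and -0.17, and Grem1 -0.088 and 0.11, with adjusted p from 0.465 to 0.825. Without control embryo 3 the anterior values were 0.50 for Chrd and 0.062 for Fst (adjusted p = 0.334 and 0.938, edgeR). The sign changed for anterior Fst without DKO embryo 3 (-0.041) and for posterior Grem1 without DKO embryo 1 (-0.0087). Anterior Grem1 was -0.25 without DKO embryo 3 and -0.016 without DKO embryo 2. Posterior Chrd was 0.15 without control embryo 4, and posterior Fst was -0.11 without DKO embryo 2.

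Msx1 had the same sign in both pieces. In anterior DKO it was at 81.6, 76.7, 68.4 and 58.2 CPM and in posterior DKO at 86.4, 74.2, 82.9 and 56.4 CPM, so that 3 of 4 DKO embryos lay above 4 of the 5 controls anteriorly and above all 5 controls posteriorly, with DKO embryo 4 among the controls in both. The log2 fold change was 0.27 ± 0.108 (SE, adjusted p = 0.33, edgeR) anteriorly and 0.38 ± 0.131 (adjusted p = 0.409) posteriorly. The pieces come from the same embryos and are not independent. Msx2 had -0.14 ± 0.26 (adjusted p = 0.864) anteriorly and 0.19 ± 0.149 (adjusted p = 0.601) posteriorly. The sign of the anterior Msx2 value rested on control embryo 3: without it the value was 0.14 (adjusted p = 0.785). Posterior Msx2 was 0.038 without DKO embryo 3.

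Whether the DKO effect differed between the pieces was tested as an interaction over all 18 libraries. The test called 0% of 16428 genes and no member. At an unadjusted p below 0.05 it had 1 member, Bmp4, against 3.45% of genes. The DKO effect on Bmp4 was 0.70 ± 0.291 (SE, adjusted p = 0.999, edgeR) higher on the log2 scale posteriorly than anteriorly. Without control embryo 3 this difference was 0.45, and with each embryo left out in turn it ran from 0.45 to 0.89. In the same test all 6 primitive erythroid markers were positive (median 1.19), 6 of 6 at an unadjusted p below 0.05 and 0 called. Their sum was 960.2 to 4632 CPM in anterior controls, 1204 to 2017 CPM in anterior DKO, 1360 to 2204 CPM in posterior controls and 1639 to 3385 CPM in posterior DKO, and its part in the Bmp4 values was not tested. With the embryo as a block and with the other alternatives the count of members called was also 0, DESeq2 calling 10 genes in all.

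Somite number is recorded for each embryo, and the level of anterior Fst followed it. This relation was noticed in the values of the members and then fitted, so it is not independent of that look. The slope per somite was estimated in each piece with genotype in the model, over all genes. Fst in the anterior piece was called, falling by 0.25 ± 0.0246 (SE) on the log2 scale per somite (adjusted p = 0.0141, edgeR), and it was the only member called, against 0.0328% of 15238 genes (5 genes, among them Fst, Msl3, Gm37697 and Eif2s3x). Among those 5 it had the smallest adjusted p; Msl3 and Eif2s3x are X-linked.

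Anterior Fst was 50.4 CPM in the control with 20 somites, 40.4 CPM at 21, 31.9 and 35.1 CPM at 23 and 23.3 CPM at 24 somites. In the DKO it was 60.05 CPM at 20, 42.9 CPM at 22, 35.6 CPM at 23 and 27.4 CPM at 24 somites. The order by somite number held in both genotypes. By their labels males had 23 or 24 somites and females 20 to 23, and by Xist all embryos with 20 to 22 somites were of female type and all with 23 or 24 of male type, so sex and stage cannot be told apart between those ranges. Within each of those ranges, and in both genotypes, the embryo with fewer somites had the higher Fst. With the sex label as given in the model the slope was -0.26 ± 0.0408 (adjusted p = 0.221), and no gene was called. The call was also lost without control embryo 2, DKO embryo 2 or DKO embryo 3 (slopes -0.26, -0.24 and -0.25, adjusted p 0.137, 0.0658 and 0.109), and it was kept without control embryo 3, which has 24 somites (-0.24, adjusted p = 0.0307). Since the posterior piece was cut at the 10 to 12 youngest somites, an older embryo would have more somites in the anterior piece, and stage and content of the piece cannot be told apart.

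Other anterior slopes were not called. Bmp4 had 0.24 ± 0.0569 (SE) per somite (adjusted p = 0.135, edgeR; adjusted p = 0.00963 with DESeq2), its DKO levels being 3.64 CPM at 20, 5.58 CPM at 22, 7.54 CPM at 23 and 9.01 CPM at 24 somites and its control levels 10.2, 8.91, 10.9, 9.91 and 18.7 CPM at 20, 21, 23, 23 and 24. Msx2 had 0.21 ± 0.0648 (adjusted p = 0.222), and 0.12 without control embryo 3. In the posterior piece no member was called, against 0.0126% of 15936 genes; Fst had -0.042 ± 0.0254 (adjusted p = 0.966) and Msx2 -0.13 ± 0.0303 (adjusted p = 0.212; adjusted p = 0.0149 with DESeq2). Whether a slope differs between the pieces was not tested.

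**Figure D3:**
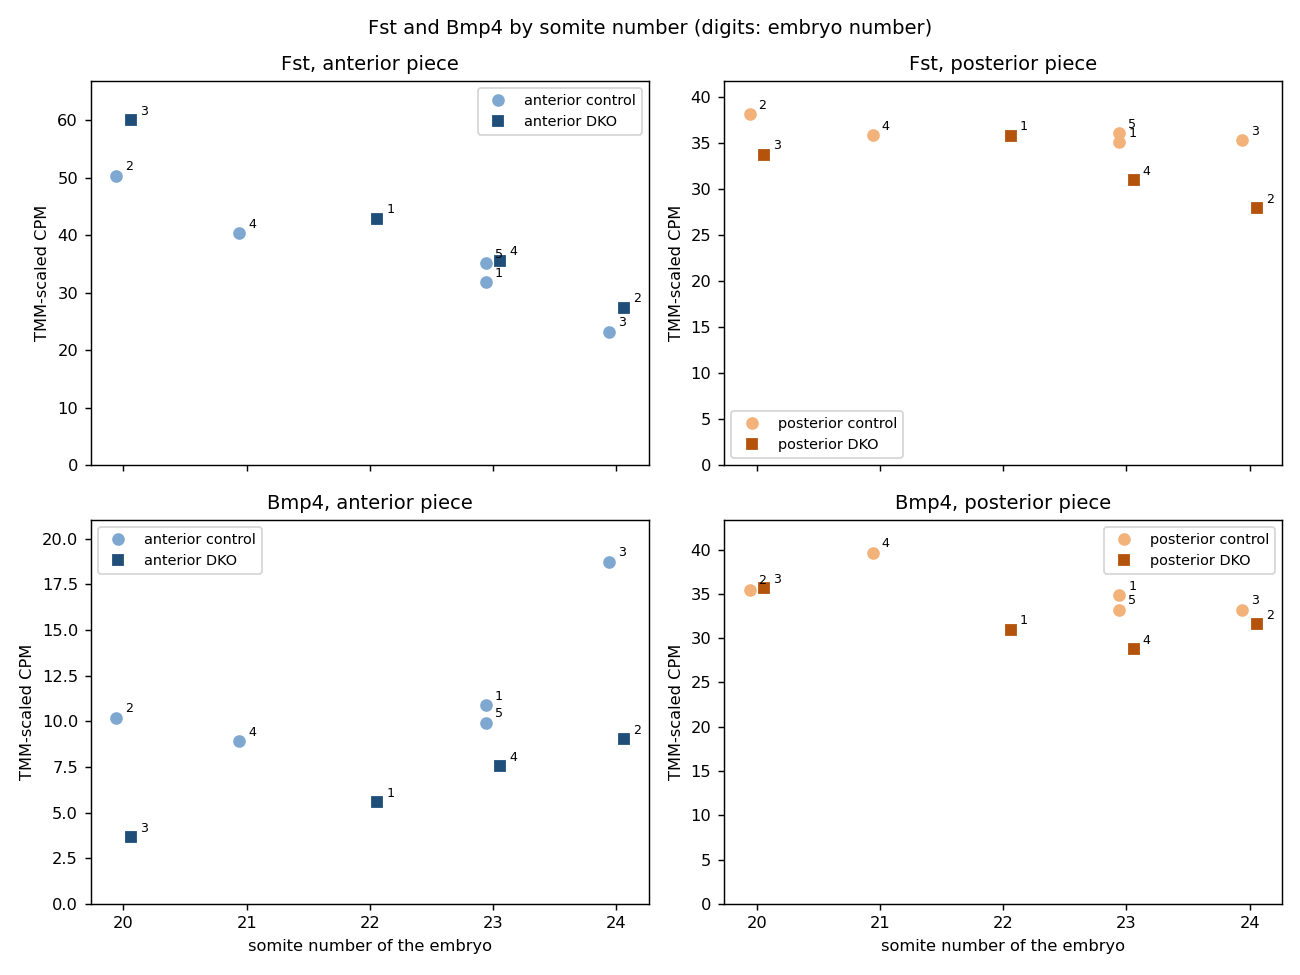
TMM-scaled CPM (y axes, from 0) of Fst and Bmp4 against the somite number of the embryo (x axes) in the anterior and posterior pieces; circles are controls, squares DKO, digits embryo numbers. Anterior Fst runs from 60.05 and 50.4 CPM at 20 somites to 27.4 and 23.3 CPM at 24, while posterior Fst stays between 27.9 and 38.1 CPM.

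Markers of other tissues moved with some members. The summed level of 9 lateral plate and limb field markers (Foxf1, Hand1, Hand2, Gata4, Gata6, Prrx1, Tbx5, Tbx4 and Isl1) was 73.1 to 84.9 CPM in anterior controls other than embryo 3, 158 CPM in control embryo 3, 48.8 to 70.2 CPM in anterior DKO, 126 to 189 CPM in posterior controls and 110 to 171 CPM in posterior DKO. Control embryo 3 was highest among anterior controls in Tbx5 at 12.2 CPM, against 1.04 to 2.71 CPM in the others, and also in Hand2, Gata4, Prrx1 and Isl1, but not in Foxf1 (6.53 CPM, against 13.5 CPM in control embryo 2) or Hand1 (8.40 against 8.72 CPM). It was also highest in Bmp4, Bmp5, Bmp7, Chrd, Msx1 and Msx2. Over the 18 libraries, log2 Bmp4 followed the log2 marker sum with Pearson r = 0.932, Msx2 with 0.811 and Bmp7 with 0.71. After removal of the group means the values were 0.767, 0.644 and 0.626, and without both libraries of control embryo 3 they were 0.649, 0.37 and 0.169. These are descriptions over libraries that share embryos and, for the first set, region. No marker of the list was at 0 in all libraries of a group, and the part of tissue content in the Bmp4 values was not tested.

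Other marker lists also differed in range between genotypes. In the anterior piece the sum of 7 neural tube markers was 426 to 536 CPM in controls and 562 to 619 CPM in DKO, that of 8 somite markers 375 to 444 and 266 to 355 CPM, and that of the notochord and floor plate markers as given beside Nog. In the posterior piece the sum of the somite markers was 414 to 564 CPM in controls and 227 to 413 CPM in DKO, that of 5 intermediate mesoderm markers was 63.6 to 78.1 CPM in controls and 27.4 to 49.5 CPM in DKO, and that of 9 surface ectoderm markers 231 to 319 and 330 to 397 CPM. No gene tested of these 5 lists was called between genotypes. Their part in the member values was not tested.

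**Figure D4:**
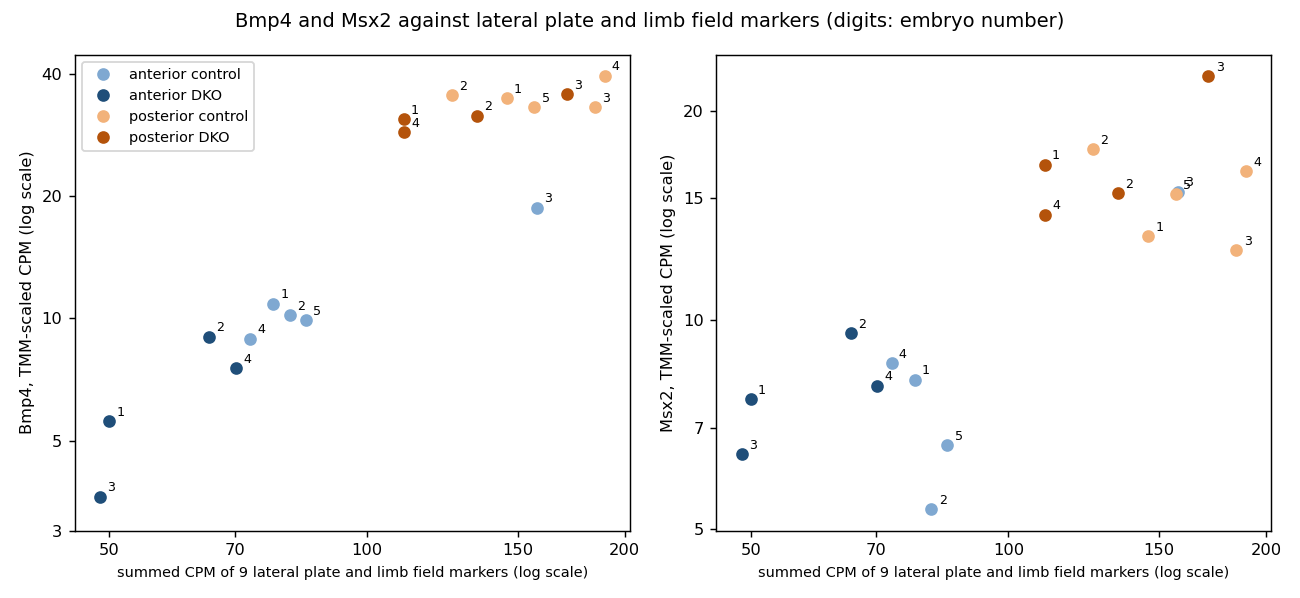
Bmp4 (left) and Msx2 (right) in TMM-scaled CPM (y axes, log scale) against the summed CPM of 9 lateral plate and limb field markers (x axes, log scale), 1 point per library, digits giving embryo numbers. The anterior library of control embryo 3 lies at 158 CPM on the x axis, among the posterior libraries, with Bmp4 at 18.7 CPM between the other anterior and the posterior libraries.

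Bmp4 and Msx2 varied together more than any other pair of members over the 18 libraries (r = 0.875); after removal of the group means the value was r = 0.725 (0.512 without both libraries of control embryo 3). Bmp4 and Fst varied in opposite directions within groups (r = -0.848), as did Chrd and Fst (r = -0.651) and Msx2 and Fst (r = -0.649). Bmp4 and Nog had -0.617. Among anterior controls, embryo 3 was highest in Bmp4, Chrd and Msx2 and lowest in Fst and Nog. The values with Fst and Nog were not computed without that embryo, and somite number was not removed from them. Msx1 and Msx2 had 0.596 within groups but 0.303 over all libraries. These values share embryos and carry no test.

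A wider list of 58 genes of the pathway was read from the same tests. Between the pieces, 19 of 51 genes tested in controls were higher posteriorly and 9 lower, against 25.4% of all genes called in either direction, and in DKO 20 of 50 were higher and 8 lower, against 18.5%; the medians were 0.11 and 0.21. Among the other ligands, Bmp3 and Gdf10 rose posteriorly in controls by 1.13 ± 0.199 and 1.07 ± 0.124 (SE, adjusted p = 0.00107 and 3.95e-05, edgeR), as did Gdf1 and Gdf11, while Gdf7, a roof plate ligand, fell by 2.13 ± 0.382 (adjusted p = 0.00122). Gdf7 was near the floor posteriorly, with 2 to 15 counts in each control and 2 to 11 in each DKO library, against 15 to 35 in anterior controls. In DKO Bmp3, Gdf10, Gdf11 and Gdf6 were called higher and Gdf7 lower.

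Of 7 receptor genes, Bmpr1b fell posteriorly by 1.29 ± 0.144 in controls (adjusted p = 2.86e-05, edgeR) and by 0.97 ± 0.274 in DKO (adjusted p = 0.033), and Bmpr2 rose by 0.22 ± 0.0764 in controls (adjusted p = 0.0487). Of 6 Smad genes, the called ones were the inhibitory Smad6 and Smad7, at 0.92 ± 0.125 and 0.91 ± 0.143 in controls (adjusted p = 0.000142 and 0.000465) and 0.99 ± 0.114 and 1.07 ± 0.137 in DKO. Smad6 and Smad7 encode intracellular inhibitors of the pathway.

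Of 19 other modulators tested, 8 were higher and 5 lower posteriorly in controls, and 8 higher and 4 lower in DKO (25.4% and 18.5% of all genes). Cer1, an antagonist of BMP and Nodal ligands, had 0 to 3 counts in each anterior control and 74 to 172 counts in each posterior control (adjusted p = 1.42e-06, edgeR), and Tll2, a protease of the family that cuts chordin, 0 to 4 and 22 to 75 counts (adjusted p = 0.000125). Sostdc1, a secreted antagonist, fell by 1.13 ± 0.264 in controls (adjusted p = 0.00719). In DKO Cer1 and Tll2 were again the highest and Nbl1 and Sostdc1 fell by 1.54 ± 0.245 and 1.31 ± 0.203.

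Of 12 other genes known to respond to BMP, 4 were higher and 2 lower posteriorly in controls, and 6 of 11 higher and 2 lower in DKO, beside the same shares of all genes. Hand2 and Dlx5 rose in controls by 2.85 ± 0.587 and 2.26 ± 0.209 (adjusted p = 0.0031 and 6.33e-06, edgeR), and Msx3, the Msx gene of the dorsal neural tube, fell by 2.95 ± 0.214 (adjusted p = 9.18e-07), as did Id3 by 0.52 ± 0.099. Id1 and Id2, which like Id3 are direct Smad targets, had 0.038 ± 0.102 and 0.005 ± 0.061 (adjusted p = 0.841 and 0.965). Hand1 and Hand2 rose in DKO by 4.13 ± 0.726 and 4.07 ± 0.449, with only 0 to 25 and 6 to 54 counts in the anterior libraries. Msx3 and Id3 fell in DKO by 2.43 ± 0.134 and 0.47 ± 0.0619. Msx1, Msx2 and Msx3 were thus not called, higher and lower posteriorly, in that order. Hand1, Hand2 and Gata4 are also in the lateral plate list and Gdf7 in the roof plate list, whose sum was 211 to 312 CPM in anterior and 69.1 to 103 CPM in posterior controls.

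**Figure D5:**
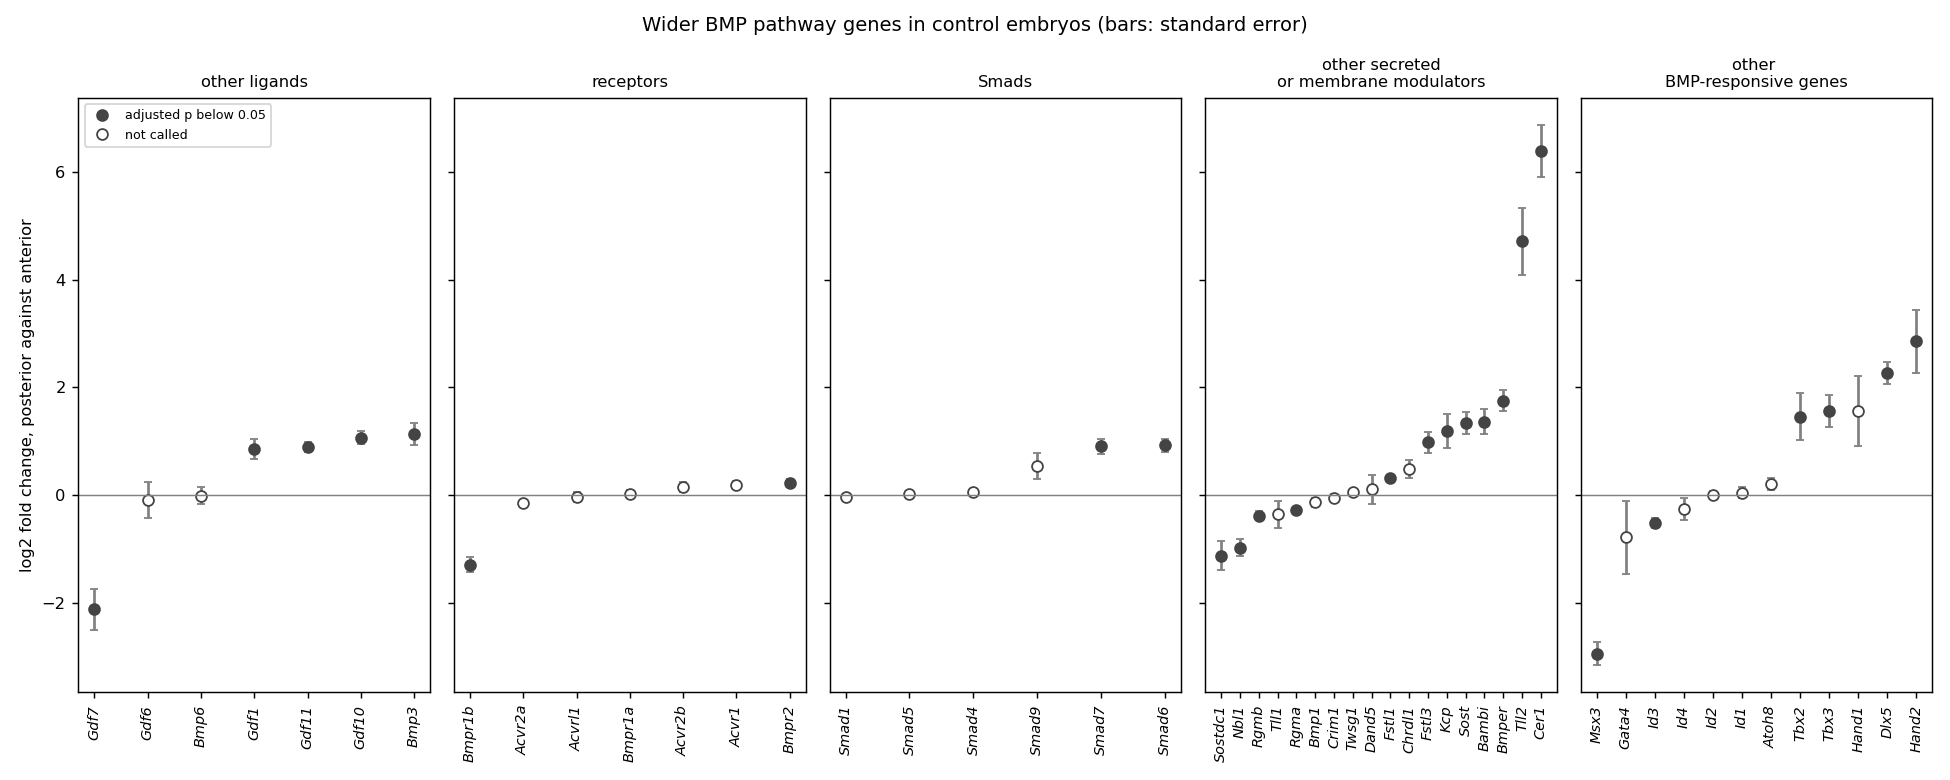
Log2 fold change of posterior against anterior in controls (y axis, with bars of 1 standard error) for 50 of the 51 further pathway genes tested, in 5 classes, filled where the adjusted p is below 0.05. The inhibitory Smad6 and Smad7 are near 0.9, the receptors apart from Bmpr1b and Bmpr2 are not called, and Msx3 lies at -2.95.

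Between genotypes, 0 of 49 list genes were called anteriorly and 0 of 50 posteriorly (edgeR), with 6 and 6 at an unadjusted p below 0.05 (13% and 11% of all genes, shares near those of the list), and 0 of 52 in the interaction. The smallest p belonged to the joint and dorsal ectoderm ligand Gdf6 anteriorly (-0.91, adjusted p = 0.168), Gdf10 posteriorly (0.32, adjusted p = 0.369) and the Smad target Id2 in the interaction (0.25, adjusted p = 0.999). Anterior Bmpr1b, the type I receptor gene that differed most between the pieces, was called by DESeq2 (-0.67, adjusted p = 0.0277) and with sex label and somite number in the edgeR model (-0.69, adjusted p = 0.0494). Its levels were 8.52 to 13.6 CPM in anterior controls and 4.97 to 9.68 CPM in anterior DKO, which overlapped. The model with covariates used the sex labels as given. The highest anterior control, at 13.6 CPM, was embryo 1, whose label is at odds with its Xist level. For somite number, 0 of 49 and 0 of 50 list genes were called; DESeq2 called Bmpr1b anteriorly (0.16 per somite, adjusted p = 0.035).

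The genes most like each member were sought among 11818 protein-coding genes by Pearson r of log2 CPM over the 18 libraries. Bmp4 was closest to Rgs5 (0.984), Pde9a (0.981) and Epb41l3 (0.972), Bmp2 to Abcb1b (0.954), St14 (0.949) and Cldn7 (0.943), Msx2 to Ybx2 (0.939), Apcdd1 (0.935) and Slc37a3 (0.932), and Bmp7 to the T-box gene Tbx2 (0.902). The nearest gene was Prex2 (0.92) for Bmp5, Fgf15 (0.889) for Fst, Bok (0.857) for Nog, Msx1 had Cyp51 (0.821), Grem1 had Zmpste24 (0.812) and Chrd had Rsph3b (0.803). After Cyp51, Msx1 was closest to Fdft1 (0.796) and Acat2 (0.792). St14 and Cldn7 are genes of epithelia. Since region enters these values, the search was repeated after removal of the group means. Fst was then closest to Apln (0.93), Fhl1 (0.908) and Gpx3 (0.906), Bmp4 to Rgs5 (0.85), Lix1 (0.835) and Cant1 (0.817), Bmp5 to Gfpt1 (0.892), Nog to Tmed5 (0.89), Slc37a3 (0.877) was nearest to Msx2, Chrd was closest to Afap1 (0.858), Bmp7 to Ror1 (0.857) and Grem1 to Dpy19l1 (0.841). Msx1 was closest to Axin2 (0.796), Dkk1 (0.795) and Scd2 (0.78). Bmp2 was then closest to Abcb1b (0.784), Decr2 (0.782) and Plcb3 (0.779). Rgs5 was the gene nearest to Bmp4, and Abcb1b the gene nearest to Bmp2, by both measures.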

How the data were processed

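The 18 libraries were poly(A) RNA, prepared with a NEBNext kit and read from a single end at 61 bp per the labels' protocols. The deposited table gives RSEM expected counts per Ensembl gene on GRCm38, unscaled between libraries; CASAVA, cutadapt and RSEM are named in the submitters' processing notes, and the aligner, the versions and the use of strand are not given in the sources used here. Symbols came from GENCODE M21 (53360 of 53465 identifiers matched). Expected counts were rounded and tested in R 4.3.3 with edgeR 4.0.16 (filterByExpr with minimum count 10 and minimum total 15, TMM, glmQLFit and glmQLFTest, Benjamini-Hochberg over all genes tested, threshold 0.05). The standard error is the log2 fold change over the root of F. CPM were TMM-scaled over all libraries, with a prior count of 2 for log2 values. The code was checked on simulated counts.

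Alternatives were RLE and upper quartile scaling, DESeq2 1.42.0, limma-voom (limma 3.58.1), no filter, a mean of 50 counts as the filter, unrounded counts, sex label with somite number as covariates, a joint fit of the 18 libraries, an embryo block, and each embryo left out. The 2 libraries of an embryo were matched on the labels (genotype, sex, somites), a unique combination each. After removal of group means, the 9 same-embryo pairs correlated at 0.256 to 0.57 over 16428 genes and 32 pairs of different embryos at -0.283 to 0.092, so the numbers pair the libraries. Nothing in the labels says whether embryos shared litters.

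The members and lists were chosen with earlier results of these data known, and the somite slopes were added after the values were seen. All 10 members were named. From the wider list came up to 2 genes per class and direction with the largest change past the threshold, and the gene of smallest p where none passed. Up to 3 of the genes most like each member were named for each measure. Genes named beyond that were chosen after their values were seen. Floors cover counting error only, since reads carry no molecular identifiers. Results of 2 genes that the rule names or the tests called are not reported here.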

Additional observations from a re-analysis of the deposited data

Results flagged for a closer look

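In 3 of the 40 combinations of member and group, the highest or lowest library stood far from the others relative to the range of its group; chance alone gives about 1 in 20. Bmp4 in the anterior controls was 18.74 CPM in embryo 3 and 8.91 to 10.9 CPM in the others. Bmp7 in the anterior controls was 29.01 CPM in the same library and 14.8 to 18.6 CPM in the others. Bmp7 in the posterior controls was 21.01 CPM in embryo 2 and 27.2 to 29.5 CPM in the others. The anterior library of control embryo 3 also had the highest lateral plate and limb field marker sum of the anterior controls; the part of tissue content was not tested.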

How the results depend on the processing

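Of 1150 recomputed values of the 10 members (70 results), 1086 kept their direction and side of the threshold, 13 passed it newly, 14 no longer passed it and 37 changed sign, all 37 in results that had not been called, of at most 0.329 in size. DESeq2 called 1 member (Bmp4) and 1 gene of the wider list (Bmpr1b) in the anterior DKO, 5 members between the pieces in controls, 2 members (Fst and Bmp4) and 1 list gene for somite number anteriorly, and 1 member (Msx2) posteriorly. With sex label and somite number as covariates 1 list gene (Bmpr1b) was called in the anterior DKO, with all 18 libraries fitted jointly 5 members between the pieces in controls, and with the sex label in the anterior somite model 0 members. With the embryo as a replicate block, the pairing of libraries gave 5 members in controls (Bmp7 and Nog added) and 3 in DKO (Bmp7 lost), 33.6% and 19% of all genes called, and 0 genes in the interaction; it changed no other member's call. Leaving out 1 embryo gave 0 to 1 members for somite number anteriorly. The cause was not tested. Signs changed for Msx2 in the anterior DKO with limma-voom (0.015), for posterior Bmp7 without a filter (-0.0012) and with covariates (-0.0024), for the Bmp2 interaction with upper quartile scaling (0.0043), limma-voom (0.017) and covariates (0.0095), and for Fst between the pieces in controls with DESeq2 (0.00038) and the block (0.017). With 1 embryo left out, the anterior DKO values ran from -0.0048 to 0.263 for Bmp7, -0.041 to 0.336 for Fst and -0.282 to 0.141 for Msx2, and the posterior ones from -0.0091 to 0.256 for Bmp2, -0.089 to 0.062 for Bmp7 and -0.0087 to 0.207 for Grem1. Interaction values ran from -0.157 to 0.161 for Bmp2, -0.256 to 0.09 for Bmp5, -0.25 to 0.016 for Bmp7, -0.226 to 0.094 for Chrd and -0.013 to 0.533 for Msx2. Between the pieces Fst ran from -0.125 to 0.12 and Msx1 from -0.1 to 0.053 in controls, and Chrd from -0.002 to 0.23 in DKO. Somite slopes ran from -0.101 to 0.0012 for Bmp5 and -0.017 to 0.034 for Msx1 anteriorly, and from -0.031 to 0.024 for Nog and -0.076 to 0.0014 for Grem1 posteriorly. Depth limits Nog, Bmp2 and Chrd most, with 36, 37 and 39 counts in their lowest libraries.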
